A study of Mus musculus with 30 samples.

Results

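The genes described here are 111 mouse transcripts of dendritic cells whose level was lowest after 4 h with apoptotic Jurkat cells, led by the marker Hepacam2, an adhesion molecule of the immunoglobulin superfamily. They were chosen from their measured levels. A gene row of the count table was taken when its mean CPM (the library's counts scaled to a sum of 1e6) was at least 5 in untreated cells of both genotypes. In addition, its mean after 4 h with Jurkat cells had to be at most 16.7% of the untreated mean in both genotypes. Of 25611 rows, 10080 met the minimum level and 123 also met the limit. Of these, 12 were left out because their symbol belongs to families or to a few genes that the rule names (Abca6, Abcg3, Adgra2, Clec10a, Clec4g, Gpr155, Hpgd, Rab3a, Slc26a11, Slco2b1, Zfp36l2 and Zfp395), which left 111 members. The low level after 4 h with Jurkat cells is therefore what defined the members and is given as a description, with no test.

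Dendritic cells take up material from their surroundings, present pieces of it to T cells and change their gene expression when they meet dying cells or microbial products. A resting dendritic cell carries uptake receptors, receptors for lipid mediators and other small signals, and transcription factors that belong to its lineage and its quiescent state. The level of a transcript follows both from its synthesis and from its breakdown, so a transcript with a short life can fall quickly when its synthesis stops. Rubcn encodes Rubicon, a protein needed for LC3-associated phagocytosis, a non-canonical use of the autophagy machinery on vesicles that hold engulfed particles.

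RNA was sequenced from dendritic cells grown from mouse bone marrow in FLT3L, which yields plasmacytoid and conventional dendritic cells side by side. The mice were wild type (WT) or Rubcn knockout (KO), and no strain, age or further allele is named in the labels. Cells of each genotype were left untreated, were given ovalbumin (OVA) for 30 min or 4 h, or received dying Jurkat cells for either time. Jurkat is an established line of human leukaemic T cells. The 10 groups had 3 libraries apiece. The untreated cells carry no time label, so the OVA libraries are the ones that match the Jurkat libraries in time. Nothing in the labels says that replicates came from separate mice or cultures, so the p-values measure the spread between these libraries, which may be technical.

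Total counts ran from 9.73 M to 51.6 M per library (median 44.9 M), and the shallowest library was a KO library of OVA 30 min. Rubcn itself was at 104 ± 4.84 CPM (SD, n = 3) in untreated WT cells and at 77.2 ± 2.99 CPM in untreated KO cells, so most of its reads remained in KO cells. KO libraries lay below WT libraries in each of the 5 conditions. All 12 markers of a list for dendritic cell identity were at 5 CPM or more in untreated cells of both genotypes. Their summed level was 28281 to 31529 CPM in untreated WT libraries and 36785 to 40668 CPM after 4 h with Jurkat cells, while 7 of the 12 lay below their untreated mean in WT and 6 in KO cells (median left 84% and 90.4%). Of 16 genes at 5 CPM or more on a list for type 1 conventional dendritic cells, 12 lay below their untreated mean in each genotype, with a median of 33.8% left in WT and 37.7% in KO cells. The summed level of that list did not fall in WT libraries (4713 to 4904 CPM untreated, 5058 to 5211 CPM after 4 h). The median left in WT and KO cells was 72.5% and 68.3% for the type 2 list. It was 97.2% and 97.5% for the plasmacytoid list and 100% and 92.0% for the monocyte or macrophage list. The summed levels moved more than these medians. In WT libraries the plasmacytoid sum went from 5291 to 5487 CPM untreated up to 7083 to 7900 CPM after 4 h. The monocyte or macrophage sum went down, from 5208 to 6046 CPM to 4214 to 4407 CPM. The type 2 sum went down as well, from 2593 to 2673 CPM to 2272 to 2370 CPM. In KO libraries these 3 sums moved in the same directions. The part of these cells in the member values was not tested. KO Jurkat 4 h replicate 2 stood apart: its counts differed from those of its 2 fellow replicates by a chi-square per degree of freedom of 129 and 134, against at most 16.6 between any other replicates. Without it, 114 genes met the rule, 108 of them among the 111. The scaling factors that edgeR's TMM method gave to the 6 libraries of 4 h with Jurkat cells ran from 0.765 to 0.842, against 1.03 to 1.07 in the other libraries, so CPM on total counts and CPM on scaled libraries differ between these conditions. In bulk RNA, fewer cells of a type and less RNA of a gene in each cell cannot be told apart.

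The region around the start of 6 members is shown because these genes fell together and differ in base composition and in the motifs matched. Each sequence runs 5′ to 3′ on the gene's own strand from 250 bases before to 50 bases after the gene start, from RefSeq on GRCm38.p6. Capitals mark matches on either strand to the GC box GGGCGG, the TATA box TATAAA, the E-box CACCTG or the AP-1 site TGANTCA, and overlapping matches run together.
Hepacam2, chr6:3494449-3494748, minus strand: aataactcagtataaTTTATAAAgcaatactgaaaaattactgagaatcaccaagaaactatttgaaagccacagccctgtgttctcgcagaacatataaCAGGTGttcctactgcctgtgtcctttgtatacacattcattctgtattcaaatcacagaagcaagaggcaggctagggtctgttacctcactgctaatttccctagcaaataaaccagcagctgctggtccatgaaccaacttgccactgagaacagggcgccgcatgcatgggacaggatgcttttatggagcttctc
Cd209a, chr8:3748935-3749234, minus strand: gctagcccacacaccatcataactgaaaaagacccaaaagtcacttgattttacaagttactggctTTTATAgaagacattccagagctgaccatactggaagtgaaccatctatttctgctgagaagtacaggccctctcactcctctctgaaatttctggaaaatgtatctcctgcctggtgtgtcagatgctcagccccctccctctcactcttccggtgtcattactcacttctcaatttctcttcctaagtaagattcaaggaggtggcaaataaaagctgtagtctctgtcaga
Cnr2, chr4:135894939-135895238, plus strand: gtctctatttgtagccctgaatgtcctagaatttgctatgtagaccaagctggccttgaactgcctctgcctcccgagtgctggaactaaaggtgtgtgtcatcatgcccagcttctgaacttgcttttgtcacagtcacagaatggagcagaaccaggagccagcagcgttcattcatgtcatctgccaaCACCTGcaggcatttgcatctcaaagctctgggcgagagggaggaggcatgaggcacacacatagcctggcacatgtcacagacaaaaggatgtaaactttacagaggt
Klf4, chr4:55532426-55532725, minus strand: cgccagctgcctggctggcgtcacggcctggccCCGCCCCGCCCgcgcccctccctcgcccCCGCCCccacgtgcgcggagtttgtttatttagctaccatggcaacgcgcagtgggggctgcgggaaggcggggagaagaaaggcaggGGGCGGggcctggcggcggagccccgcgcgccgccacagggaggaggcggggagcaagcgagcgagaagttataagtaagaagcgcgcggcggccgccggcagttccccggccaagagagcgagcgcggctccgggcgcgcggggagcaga
Klf2, chr8:72318812-72319111, plus strand: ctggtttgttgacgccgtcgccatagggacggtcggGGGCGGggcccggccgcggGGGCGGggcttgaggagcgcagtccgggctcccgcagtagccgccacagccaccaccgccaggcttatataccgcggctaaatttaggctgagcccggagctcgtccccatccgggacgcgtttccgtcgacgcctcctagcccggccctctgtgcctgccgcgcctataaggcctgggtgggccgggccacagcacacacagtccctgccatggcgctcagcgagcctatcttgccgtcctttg
Map3k9, chr12:81781121-81781420, minus strand: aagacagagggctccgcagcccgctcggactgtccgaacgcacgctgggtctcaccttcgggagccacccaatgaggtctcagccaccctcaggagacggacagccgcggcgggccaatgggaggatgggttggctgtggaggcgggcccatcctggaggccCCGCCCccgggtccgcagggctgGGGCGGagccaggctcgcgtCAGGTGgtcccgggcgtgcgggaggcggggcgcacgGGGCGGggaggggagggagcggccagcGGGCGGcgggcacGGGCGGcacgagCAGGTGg

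Among the sequences shown, Klf4 and Klf2 had the base composition of CpG islands, with a GC content of 74.3% and 69.3% and matches to the GC box. Hepacam2 (43.0% GC) and Cd209a (44.0% GC) had no GC box and held a match to the letters of the TATA box. In both genes this match lies nearer to the upstream end of the window than to the gene start. It therefore does not class either gene as having a TATA promoter. In all, 95 of the 111 members and 11596 of the 14808 genes tested had a promoter in the table. A GC box stood in 51.6% of the member promoters and in 62.1% of all promoters, and the median ratio of observed to expected CpG was 0.607 against 0.744. The E-box CACCTG stood in 25.3% against 17.8% and the AP-1 site in 11.6% (11 of 95) against 5.22%. For TATAAA the shares were 8.42% and 7.63%. Further patterns searched on both strands gave 34.7% against 27.3% for GAGGAA, 46.3% against 36.7% for CCACCC, 12.6% against 13.1% for TGTGGT and 4.21% against 2.48% for TGTTTAC. The cyclic AMP element TGACGTCA was in none of the 95 member promoters and in 3% of all promoters. These matches describe letters in a window of 300 bases and were not tested.

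After 4 h with Jurkat cells, 2.52% to 15.9% of the untreated CPM remained in WT cells (median of the members 9.83%) and 2.60% to 16.7% in KO cells (median 11.9%). Of the 10080 rows at 5 CPM or more, 1.74% were at or under the limit in WT cells and 1.22% in KO cells, and the median row kept 70.4% and 72.9%. The summed level of the 111 members was 9420 ± 193 CPM in untreated WT cells and 1018 ± 57.6 CPM after 4 h with Jurkat cells (SD, n = 3). In KO cells the sum was 9457 ± 288 CPM untreated and 1177 ± 29.9 CPM after 4 h. Without KO Jurkat 4 h replicate 2 the KO median was 11.9% and the sum after 4 h was 1192 CPM. On the TMM scale more was left, with a median of 13% in WT and 15% in KO cells and at most 21.1% in each.

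For all 111 members, each of the 6 libraries of 4 h with Jurkat cells lay below each of the other 24 libraries of the 10 groups. The same held for 61.0% of the other rows at 5 CPM or more, so the separation by itself is common in this table and the depth of the fall is what sets the members apart by construction. The smallest count of any member in any library was 14 reads. After 4 h with Jurkat cells 10 members were under 1 CPM in both genotypes, so depth limits how precisely their share left is known. In untreated WT cells 81 members were at 20 CPM or more and 29 were at 100 CPM or more. In 37 members no more than 10% was left in both genotypes.

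**Figure D1:**
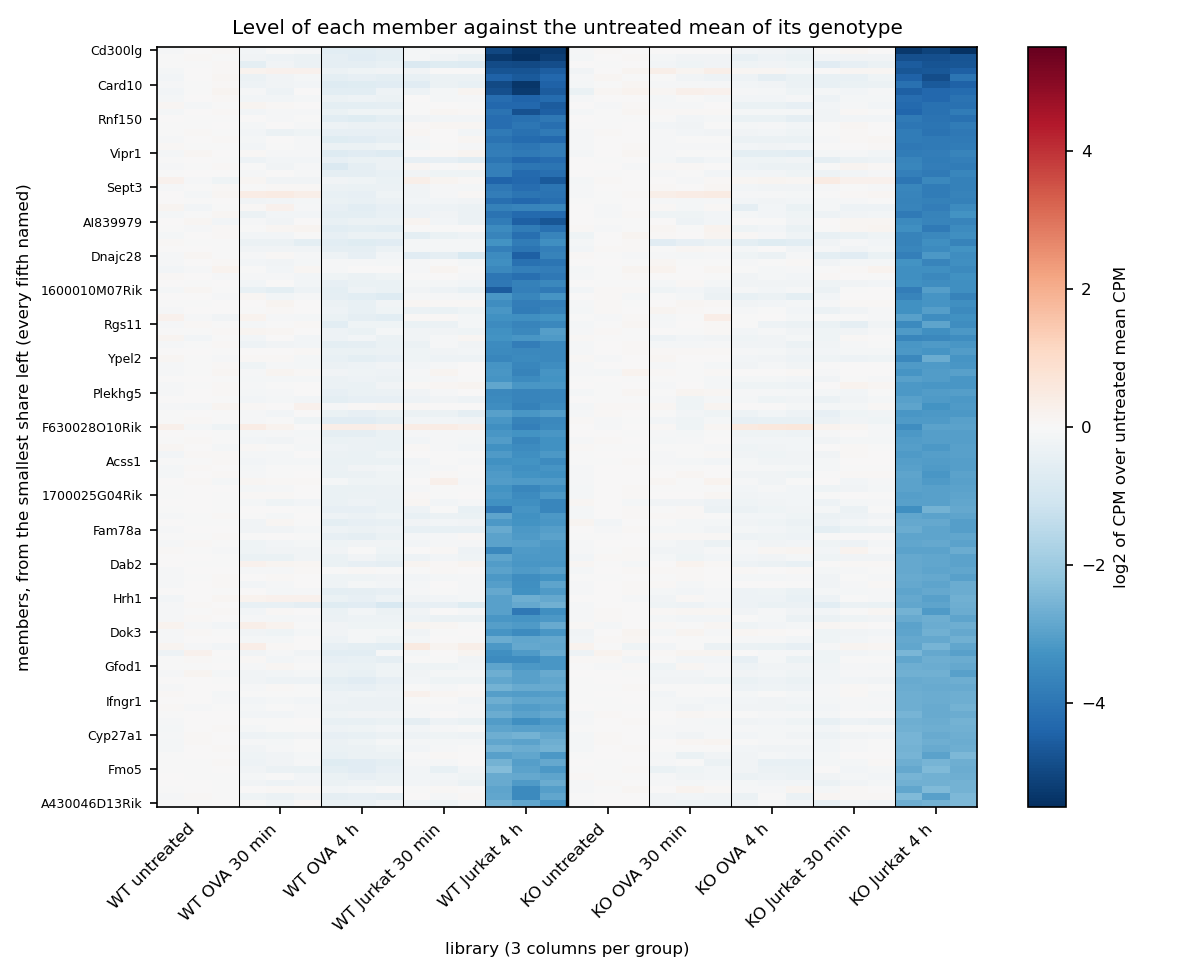
Level of each of the 111 members (rows) in each of the 30 libraries (columns, 3 per group), as log2 of its CPM over the mean CPM of untreated cells of the same genotype; rows run from the smallest share left after 4 h with Jurkat cells to the largest. The 6 libraries of 4 h with Jurkat cells form the dark blue columns. Of the other groups WT OVA 4 h is the bluest, with a member median of 78.4% of untreated.

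**Figure D2:**
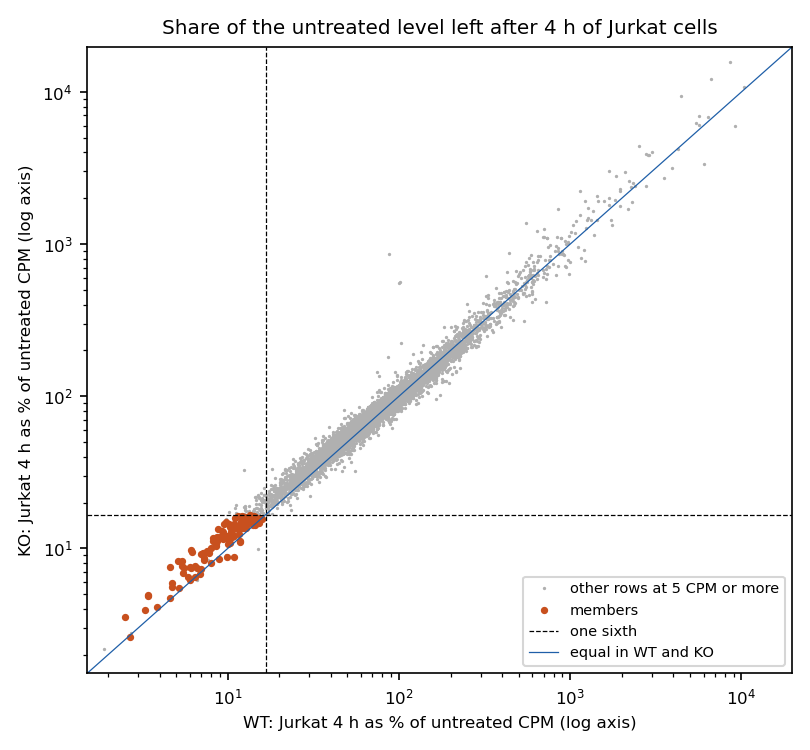
Mean CPM after 4 h with Jurkat cells as a percentage of the untreated mean, WT on the x axis and KO on the y axis (both log axes), for the 111 members and the other rows at 5 CPM or more; dashed lines mark the limit of the rule and the solid line equal shares. The members run from 2.52% to 15.9% in WT cells and most lie above the line of equal shares.

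The 3 members nearest to the limit on its inner side were Dapk2 (11.5% left in WT, 16.4% in KO), 2610035D17Rik (12.1% and 16.4%) and A430046D13Rik (13.5% and 16.7%). Just outside it were Plekhg3 (12% and 16.7%), Nanos1 (13.7% and 16.8%) and Ssh2 (15.3% and 16.9%). These values form a continuum, and no gap separates members from other rows.

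Hepacam2 stood at 93.6, 97.2 and 91.4 CPM in the 3 untreated WT libraries and at 2.41, 2.10 and 2.61 CPM after 4 h with Jurkat cells. In KO cells it was at 103, 111 and 114 CPM untreated and at 3.78, 3.79 and 4.07 CPM after 4 h. With OVA for 4 h it was still at 66.3, 61.2 and 65.3 CPM in WT and at 82.9, 90.9 and 86.0 CPM in KO cells. The WT and KO libraries did not overlap in any of these 3 conditions, with KO above WT each time. Hepacam2 (Entrez 101202) spans chromosome 6, 3457089 to 3494498, on mm10.

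Cd300lg, which encodes an immunoglobulin-family receptor known from small blood vessels, had the smallest share left when the larger value of both genotypes is used: 2.69% in WT and 2.60% in KO cells. Its libraries were at 54.8, 58.6 and 60.2 CPM untreated and at 1.81, 1.39 and 1.47 CPM after 4 h with Jurkat cells in WT. The next smallest shares belonged to Hepacam2 (2.52% and 3.55%), to Lpar5 (3.30% and 3.92%), to Kif5a, a kinesin heavy chain (3.88% and 4.10%), and to Lrrc3, a leucine-rich repeat protein (4.60% and 4.74%). By CPM in untreated cells the most abundant members were Itgb7, Dpep2, Nfam1, Ifngr1 and Lbh. Per kb of transcript, which allows a comparison between genes, Itgb7 (348 CPM per kb in untreated WT cells) and Dpep2 (324) were highest of the 105 members with a transcript length. Nfam1, with a long transcript, was at 56.1 CPM per kb, and the median member was at 18.1.

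Of the members with textbook roles, 10 are G protein-coupled receptors or their regulators. The receptors read lipid mediators and other small signals: Lpar5 lysophosphatidic acid, Ltb4r1 leukotriene B4, Ptger3 prostaglandin E2, Cnr2 endocannabinoids, Adora3 adenosine, Hrh1 histamine, Vipr1 vasoactive intestinal peptide and Cxcr3 interferon-induced chemokines. Their median share left was 7.78% in WT and 9.85% in KO cells. Lpar5 was at 42.5, 42.5 and 45 CPM in untreated WT libraries and at 1.43, 1.37 and 1.5 CPM after 4 h with Jurkat cells. Ltb4r1 fell from 26.8 ± 1.59 to 1.26 ± 0.333 CPM (SD, n = 3). Arrb1, the arrestin that ends and redirects signals of such receptors, was the most highly counted of the 10 and went from 270 ± 11.8 to 27.7 ± 2.12 CPM in WT and from 283 ± 6.29 to 39.3 ± 3.12 CPM in KO cells.

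Uptake, adhesion and immune receptors and ligands made up 13 members, with a median of 12.7% left in WT and 14.2% in KO cells. Cd209a, a lectin of the DC-SIGN family that binds glycans of pathogens, was at 163, 175 and 163 CPM in untreated WT libraries and at 11.3, 9.72 and 11.1 CPM after 4 h with Jurkat cells. Its relative Cd209c, 191 kb away on chromosome 8, went from 53.3 ± 1.2 to 3.74 ± 0.387 CPM. The libraries of these conditions did not overlap for either lectin. The scavenger receptor Cd163 went from 28.3 ± 1.11 to 2.05 ± 0.467 CPM. Larger shares were left of Itgb7, the integrin chain used in homing to the gut (15.9% in WT), of Ifngr1, the interferon-gamma receptor chain (14.4%), and of Fcgrt, the neonatal Fc receptor (14.2%). The cytokine gene Il16 kept 5.53% and Tnfsf14, which encodes LIGHT, kept 14.4%.

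Transcription factors and chromatin proteins numbered 9, with a median of 9.75% left in WT and 11.5% in KO cells. Klf4, a zinc finger factor needed by a subset of type 2 conventional dendritic cells, was at 130, 132 and 135 CPM in untreated WT libraries and at 7.35, 8.44 and 7.55 CPM after 4 h with Jurkat cells. Klf2, a factor of quiescence in lymphocytes, was at 51.9, 54.0 and 58.2 CPM and at 5.95, 4.23 and 5.81 CPM. Other members of this group were Lbh (5.4% left in WT), Tet1, which oxidises methylcytosine (7.96%), Nfatc2 (9.40%), the Myc antagonist Mxd4 (10.8%), Tsc22d3, the glucocorticoid-induced GILZ (11.8%), the chromatin remodeller Smarca2 (12.6%) and Lyl1 (14.3%).

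Kinases, adaptors and regulators of small GTPases numbered 12. Map3k9, a kinase upstream of JNK, was at 81.2, 76 and 86.3 CPM in untreated WT libraries and at 5.78, 5.01 and 4.83 CPM after 4 h with Jurkat cells. Deptor, an inhibitor of mTOR, kept 4.70% in WT and 5.6% in KO cells, and Card10, a scaffold of NF-kB signalling, 3.41% and 4.85%. Map2k6, a kinase upstream of p38, kept 8.91% and 8.48%.

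The 3 death-related members were Bmf, a BH3-only protein that opposes BCL2 (11% left in WT, 15.8% in KO), the executioner caspase gene Casp6 (12.2% and 15.4%) and the kinase gene Dapk2. Among 10 enzymes, the lysosomal sulfatase Sgsh kept 5.48% and 6.89%, and Cyp27a1, which hydroxylates cholesterol, 15.5% and 15.8%. The neighbouring membrane dipeptidases Dpep3 and Dpep2 lie 5.5 kb apart on chromosome 8 and kept 3.40% and 14.2% in WT cells. Rtl8a, Rtl8b and Rtl8c lie within a short stretch of chromosome X and are near-identical copies, so how their reads were split is uncertain. The remaining members outside these roles number 54.

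**Figure D3:**
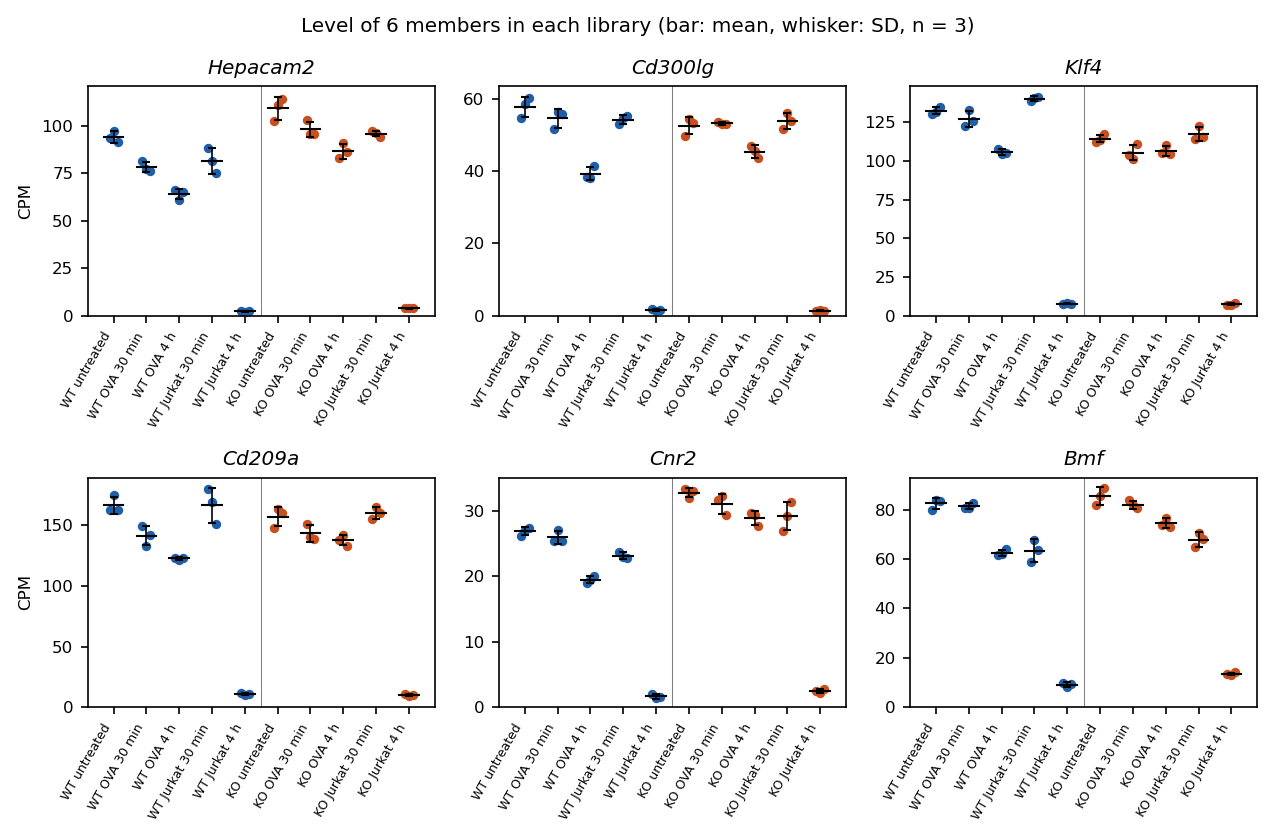
CPM of Hepacam2, Cd300lg, Klf4, Cd209a, Cnr2 and Bmf in each of the 30 libraries (points), with the mean as a bar and the SD as whiskers (n = 3), WT in blue and KO in orange. After 4 h with Jurkat cells every point lies near the bottom of its panel, and in WT cells OVA for 4 h gave lower points than OVA for 30 min.

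To see whether the members also moved where the rule had not looked, the OVA and Jurkat 30 min libraries were compared with each other. A gene was called when its Benjamini-Hochberg adjusted p (FDR) was under 0.05 in edgeR's quasi-likelihood F test over 14808 genes, and all 111 members were among the genes tested. Log2 fold changes are on the TMM scale and carry a standard error (SE). After 30 min with Jurkat cells, the members' median level was 95.2% of untreated in WT and 93.7% in KO cells, against 99.2% and 99.3% for the other rows at 5 CPM or more. With OVA for 30 min the members' median was much the same, at 96.1% and 96.6% of untreated. The untreated libraries helped to choose the members, so these shares are a description only. The lowest members after 30 min with Jurkat cells were Lpar5 at 60.9% in WT and Dnajc28 at 70.1% in KO cells. Against OVA 30 min in WT cells, 7 members were higher and 24 lower, 27.9% of the members, where 24.3% of all genes tested (11.9% higher and 12.3% lower) and 29% of the other rows at 5 CPM or more were called. In KO cells 5 were higher and 12 lower, where 10.2% of all genes (5.3% higher and 4.92% lower) and 11.2% of the other rows were called. The WT count of 31 was 20 without WT Jurkat 30 min replicate 1. The KO count of 17 was 11 without KO OVA 30 min replicate 1 or 2 or KO Jurkat 30 min replicate 1, and 10 without KO Jurkat 30 min replicate 2. The median log2 fold change was -0.00 in WT and -0.03 in KO cells for the members and 0.01 in both for all genes.

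Some members with a signalling role differed between Jurkat cells and OVA at 30 min. In WT cells the share of members called (27.9%) was near that of the other rows at 5 CPM or more (29%). By direction, 24 members were lower and 7 higher, where 16.9% of the other rows were lower and 12.1% higher. In KO cells 12 were lower and 5 higher, where 6.65% of the other rows were lower and 4.57% higher. The log2 fold change was positive in 49.5% of the members in WT (other rows 48.3%) and 37.8% in KO cells (52.2%). An early fall of the members as a set was not tested, and the genes below are single cases. Bmf was at 80.5, 80.8 and 82.7 CPM with OVA and at 58.7, 67.8 and 63.5 CPM with Jurkat cells at 30 min in WT cells. In KO cells it was at 83.7, 81.9 and 80.4 CPM and at 64.8, 70.7 and 68.0 CPM. The libraries did not overlap in either genotype, and the log2 fold change was -0.36 in WT (SE 0.0452, FDR 9.49e-07) and -0.26 in KO cells (SE 0.0464, FDR 0.00036). Map3k9 was at 108, 111 and 103 CPM with OVA and at 71.8, 77.4 and 85.6 CPM with Jurkat cells in WT. These libraries did not overlap, and the log2 fold change was -0.45 in WT (SE 0.0586, FDR 1.57e-06) and -0.32 in KO cells (SE 0.0603, FDR 0.000846).

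Untreated WT libraries of Map3k9, at 76 to 86.3 CPM, lay close to the Jurkat libraries and below the OVA libraries. Dna2, a nuclease and helicase of DNA replication, was lower with Jurkat cells by 0.23 in WT (SE 0.0325, FDR 5.95e-06) on the log2 scale. Neurl1b, a ubiquitin ligase of the Notch pathway, had a log2 fold change of -0.32 in WT (SE 0.0536, FDR 5.75e-05) and -0.30 in KO cells (SE 0.0551, FDR 0.000658). Lpar5 was at 30.3, 37.5 and 35.1 CPM with OVA and at 25, 27.5 and 26.7 CPM with Jurkat cells at 30 min in WT, without overlap (log2 fold change -0.38, SE 0.0631, FDR 6.03e-05). Il16 went the same way in WT cells (-0.29, SE 0.0556, FDR 0.000269), as did the glucocorticoid-induced Tsc22d3 (-0.33, SE 0.0615, FDR 0.000252).

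A few members were higher after 30 min with Jurkat cells than with OVA. Map2k6 was at 8.1, 8.02 and 6.95 CPM with OVA and at 9.49, 9.36 and 9.51 CPM with Jurkat cells in WT, and at 7.65, 8.57 and 9.35 against 10.2, 11.2 and 10.6 CPM in KO cells. Neither genotype showed an overlap, with log2 fold changes of 0.30 (SE 0.0754, FDR 0.00433) and 0.37 (SE 0.0790, FDR 0.00246). Cd209a was at 149, 133 and 142 CPM with OVA and at 180, 169 and 151 CPM with Jurkat cells in WT (log2 fold change 0.24, SE 0.0536, FDR 0.00171). Its untreated libraries, at 163 to 175 CPM, lay within the range of the Jurkat libraries. Untreated KO libraries of Klf4, at 113 to 117 CPM, lay above its KO libraries of OVA 30 min, at 101 to 111 CPM. In KO cells Klf4 (0.18, SE 0.0452, FDR 0.0105) and Cxcr3 (0.24, SE 0.0689, FDR 0.0233) were called higher, and in WT cells Casp6 (0.15, SE 0.0452, FDR 0.0149). These last calls did not hold when some libraries were left out 1 at a time. Klf4 lost its call without KO OVA 30 min replicate 2 (0.15) or KO Jurkat 30 min replicate 2 (0.15). Cxcr3 lost its call without KO OVA 30 min replicate 2 (0.16) and without KO Jurkat 30 min replicates 2 or 3 (0.22 in each case). Casp6 lost its call without WT OVA 30 min replicate 1 (0.14) or WT Jurkat 30 min replicate 1 (0.10).

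A test of whether this early difference between Jurkat cells and OVA itself differed between genotypes called none of the members and 0.0743% of all genes (0.0405% higher and 0.0338% lower, edgeR), with 10 members at an unadjusted p under 0.05. T lineage genes, a list of 20 that a human T cell line could contribute to, were at a summed 84.5 to 94.1 CPM with OVA 30 min and 135 to 140 CPM with Jurkat cells at 30 min in WT libraries, and at 90.0 to 102 and 121 to 131 CPM in KO libraries. Of these 20 genes, 4 were at 5 CPM or more in untreated cells and 12 were under 1 CPM, and none is a member. Their part in the member values was not tested.

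OVA for 4 h against OVA for 30 min shows the course over the same time without Jurkat cells. In WT cells 84 of the 111 members were lower after 4 h and none was higher, where 14.7% of all genes tested were lower and 14.9% higher (29.7% called in either direction). Of the other rows at 5 CPM or more, 19.2% were lower and 17.7% higher. The median log2 fold change of the members was -0.25, against 0.00 for all genes. In KO cells 34 members were lower and 1 was higher, where 6.28% of all genes were lower and 6.5% higher, and the median was -0.14 against 0. Of the other rows at 5 CPM or more, 8.37% were lower and 8.29% higher in KO cells. The KO count of 35 was 22 without KO OVA 4 h replicate 3. The fall was small beside that with Jurkat cells: in WT cells the median member stood at 78.4% of its untreated level after 4 h of OVA. Of the members, 34 were called in both genotypes, 50 were called in WT and not in KO cells, 1 the other way round and 26 in neither. Over all genes tested, calls were also fewer in KO cells (12.8%) than in WT cells (29.7%), and the same split was not counted for them. The split by itself therefore does not show a difference between the genotypes.

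Vipr1 was at 21.9, 20.04 and 20.1 CPM after 30 min of OVA and at 12.9, 13.7 and 12.8 CPM after 4 h in WT cells. In KO cells it was at 23.1, 23.3 and 23.6 CPM and at 16.4, 16.3 and 15.8 CPM. Neither genotype showed an overlap between the times, and the log2 fold change was -0.64 in WT (SE 0.0576, FDR 2.24e-09) and -0.53 in KO cells (SE 0.0591, FDR 8.04e-07). Map3k9 had the largest fall of the members in WT cells, from 103 to 111 CPM down to 60.1 to 69.6 CPM (log2 fold change -0.74, SE 0.0591, FDR 3.23e-10), with -0.47 in KO cells (SE 0.0606, FDR 5.82e-06). The ubiquitin ligase gene Rnf150 fell by 0.56 (SE 0.0443, FDR 2.83e-10) and Dna2 by 0.40 (SE 0.0326, FDR 4.43e-10) on the log2 scale in WT cells.

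In KO cells the smallest p-values after that of Vipr1 belonged to the endocytic adaptor gene Dab2 (-0.43, SE 0.0497, FDR 1.14e-06) and to Smarca2 (-0.32, SE 0.0388, FDR 2.92e-06). Both also fell in WT cells, Dab2 with -0.59 (SE 0.0494, FDR 7.60e-10) and Smarca2 with -0.43 (SE 0.0383, FDR 2.26e-09). Cd163 fell from 30.0 ± 1.83 to 19.0 ± 0.281 CPM in WT cells (-0.65, SE 0.0721, FDR 8.71e-08) and from 32.0 ± 2.19 to 25.2 ± 1.95 CPM in KO cells (-0.33, SE 0.0739, FDR 0.00295). Cd300lg fell in both genotypes, with -0.46 in WT (SE 0.0486, FDR 3.69e-08) and -0.23 in KO cells (SE 0.0503, FDR 0.00241). Hepacam2 fell in WT cells (-0.27, SE 0.0504, FDR 0.000137). Its fall in KO cells (-0.18, SE 0.0509, FDR 0.0153) lost its call without KO OVA 30 min replicate 1 (-0.14), KO OVA 4 h replicate 1 (-0.15) or KO OVA 4 h replicate 3 (-0.18).

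Each role group held members that were lower after 4 h of OVA in WT cells. Of the 10 receptors and regulators 7 were lower in WT and 3 in KO cells, of the 13 uptake and immune receptors and ligands 12 and 4, and of the 9 transcription and chromatin members 7 and 2. Of the 12 kinases and adaptors 11 were lower in WT and 7 in KO cells, of the 3 death-related members 2 and 1, and of the 10 enzymes 7 and 3. Klf4 was at 123, 133 and 126 CPM after 30 min and at 108, 104 and 105 CPM after 4 h of OVA in WT cells (-0.25, SE 0.0439, FDR 5.71e-05). In KO cells it was at 104, 101 and 111 CPM and at 105, 110 and 105 CPM, which overlap (0.02, SE 0.0453, FDR 0.802). Klf2 fell in WT cells (-0.29, SE 0.0721, FDR 0.00267) and stood at -0.00 in KO cells (SE 0.0749, FDR 1). Lpar5, among the deepest falls with Jurkat cells, was not called in either genotype (-0.10 in WT, FDR 0.223, and -0.02 in KO cells, FDR 0.901).

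F630028O10Rik was the member that rose in KO cells, from 79.3, 63.3 and 80.9 CPM to 104, 110 and 115 CPM (0.57, SE 0.110, FDR 0.000662). In WT cells it was at 112, 96.7 and 85.5 CPM and then at 107, 107 and 99.4 CPM, which overlap (0.10, FDR 0.504). An interaction term asked if the genotypes followed different courses, a test added after the counts in each genotype had been seen. By edgeR it called none of the members, with 0.0135% of all genes called. By DESeq2 4 members passed, and without KO OVA 30 min replicate 1 the edgeR count was 2. At an unadjusted p under 0.05 stood 43 members (38.7%), against 9.11% of the other rows at 5 CPM or more. The difference (KO minus WT) was positive in 107 of 111 members, against 51.0% of all genes tested, with a median of 0.13 against 0.00. The smallest p among the members belonged to Dna2 (0.21, SE 0.0465, FDR 0.0958) and Klf4 (0.28, SE 0.0631, FDR 0.104).

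**Figure D4:**
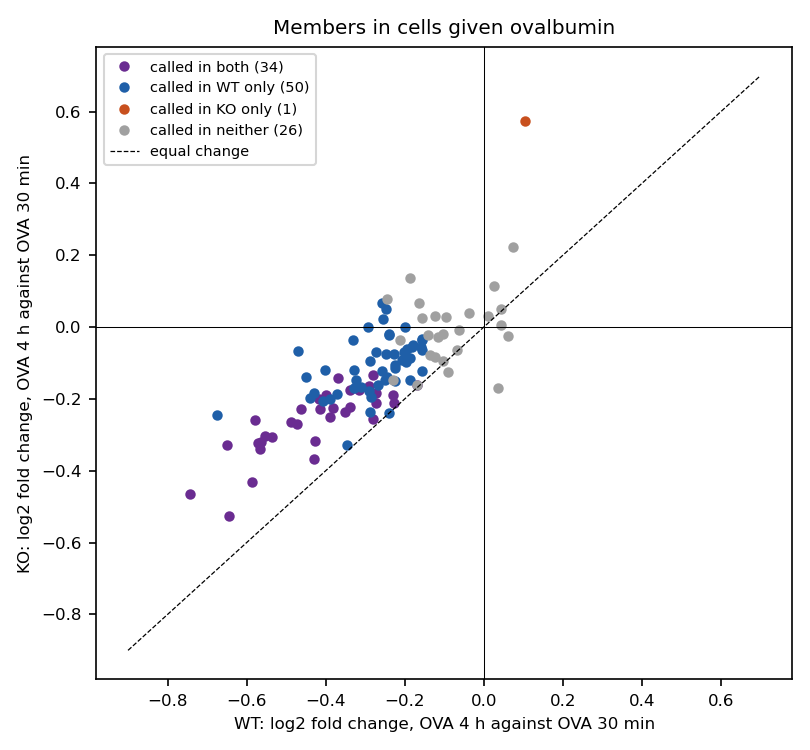
Log2 fold change of each member between OVA 4 h and OVA 30 min, WT on the x axis and KO on the y axis, coloured by the genotype in which it was called (FDR under 0.05); the dashed line marks equal change. Most members lie to the left of 0 and above the dashed line, with 34 called in both genotypes and F630028O10Rik at the upper right as the one called in KO alone.

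Across the members, how deeply a gene fell with Jurkat cells (4 h against untreated) was set beside how far it fell with OVA (4 h against 30 min). The Pearson correlation of these log2 fold changes over the 111 members was 0.164 in WT and 0.215 in KO cells, and Spearman's was 0.189 and 0.228. Over the other 9969 rows at 5 CPM or more Pearson's was 0.595 and 0.491. The members span a narrow range of the first quantity by choice, and genes are not independent replicates, so these values are a description.

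Marker lists of other cells are set beside this course. The list of 20 monocyte or macrophage genes, all in the table and 18 of them at 5 CPM or more, summed to 5549 to 6332 CPM after 30 min and 6459 to 6867 CPM after 4 h of OVA in WT libraries, and to 5665 to 5941 and 6638 to 6857 CPM in KO libraries. One of these genes, Cd163, is a member. The summed plasmacytoid list was at 5194 to 5525 and 5293 to 5386 CPM in WT libraries and at 4070 to 4617 and 4581 to 4763 CPM in KO libraries. The list for type 1 conventional dendritic cells went down, from 4706 to 4950 CPM to 4571 to 4602 CPM in WT and from 4832 to 4954 CPM to 4535 to 4591 CPM in KO libraries. Of its 18 genes tested, 6 were lower in each genotype, and 5 were higher in WT and 2 in KO cells. Their part in the member values was not tested.

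The genotypes were compared within the 3 conditions that the rule had not used. With OVA 30 min, 13 members were higher and 10 lower in KO than in WT cells, where 6.25% of all genes were higher and 6.13% lower, and with Jurkat 30 min 9 were higher and 6 lower, where 5.58% were higher and 3.67% lower (12.4% and 9.25% called in either direction). The 23 calls at OVA 30 min were 15 without WT replicate 1 and 9 without KO replicate 2, and the 15 at Jurkat 30 min were 9 without WT replicate 2 or KO replicate 3. With OVA 4 h, 49 members were higher in KO cells and none was lower, where 6.22% of all genes were higher and 6.35% lower (12.6% called in either direction). Of the other rows at 5 CPM or more, 13.3% were called at OVA 30 min and 9.41% at Jurkat 30 min. At OVA 4 h 12.9% of these rows were called, 5.53% higher and 7.38% lower. The median log2 fold change of the members was 0.02 at OVA 30 min, 0.01 at Jurkat 30 min and 0.15 at OVA 4 h, with 0.00 for all genes in each. The OVA 4 h libraries are the same ones that enter the course over time, so both results share them.

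**Figure D5:**
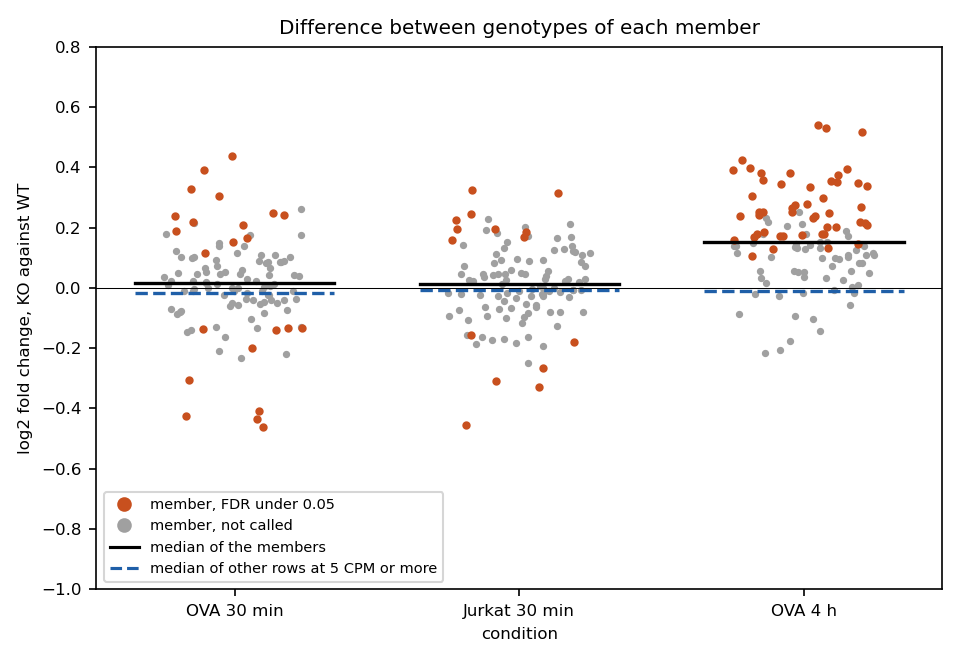
Log2 fold change of KO against WT for each of the 111 members in the 3 conditions that the rule had not used (points, spread sideways for sight), in orange where the FDR was under 0.05; black lines mark the median of the members and dashed blue lines that of the other rows at 5 CPM or more. The members centre near 0 at OVA 30 min (median 0.02) and Jurkat 30 min (0.01) and above 0 at OVA 4 h (0.15).

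Cnr2, the cannabinoid receptor of immune cells, was at 19.0, 19.4 and 20.1 CPM in WT and at 29.6, 29.4 and 27.6 CPM in KO cells after 4 h of OVA. The libraries were far apart, and the log2 fold change was 0.53 (SE 0.0568, FDR 1.38e-07). KO libraries of Cnr2 also lay above WT libraries at OVA 30 min (0.25, SE 0.0574, FDR 0.00406) and at Jurkat 30 min (0.33, SE 0.0559, FDR 0.000309). Hepacam2 was higher in KO cells at OVA 30 min (0.31, SE 0.0510, FDR 0.000149), at Jurkat 30 min (0.22, SE 0.0497, FDR 0.00388) and at OVA 4 h (0.39, SE 0.0504, FDR 2.17e-06). Sgsh was higher in KO cells at OVA 4 h (24.4 ± 1.42 CPM in WT, 33.0 ± 0.600 CPM in KO, log2 fold change 0.40, SE 0.0504, FDR 1.97e-06).

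Olfm1, which encodes the secreted glycoprotein olfactomedin 1, was higher in KO cells in each of these 3 conditions. At OVA 30 min it was at 232, 237 and 245 CPM in WT and at 301, 312 and 298 CPM in KO libraries, without overlap (0.33, SE 0.0521, FDR 8.28e-05). At Jurkat 30 min the log2 fold change was 0.32 (SE 0.0517, FDR 0.000172) and at OVA 4 h 0.35 (SE 0.0519, FDR 1.64e-05). Atg9b, a lipid scramblase of autophagosome formation, was higher in KO cells at OVA 30 min (0.39, SE 0.0707, FDR 0.000367).

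Fewer members were lower in KO cells. Klf4 was at 123 to 133 CPM in WT and at 101 to 111 CPM in KO libraries of OVA 30 min (-0.30, SE 0.0451, FDR 3.67e-05), and the fold change at Jurkat 30 min was -0.27 (SE 0.0438, FDR 0.000189). At OVA 4 h it was at 104 to 108 CPM in WT and at 105 to 110 CPM in KO libraries, which overlap (-0.03, FDR 0.786). The histamine receptor gene Hrh1 was lower at OVA 30 min, with 28.7, 29.7 and 29.7 CPM in WT and 19.8, 23.5 and 21.9 CPM in KO libraries (-0.46, SE 0.0735, FDR 8.27e-05). Skint3, of the butyrophilin-like Skint family, was lower at OVA 30 min as well (-0.41, SE 0.0998, FDR 0.00657), a call lost without WT OVA 30 min replicate 1 (-0.32) or KO OVA 30 min replicate 2 (-0.36). At Jurkat 30 min the adaptor gene Dok3 (-0.31, SE 0.0660, FDR 0.00281) and F630028O10Rik (-0.45, SE 0.106, FDR 0.00592) were lower.

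After 4 h with Jurkat cells, more of the untreated level was left in KO than in WT cells for 101 of the 111 members, and for 68.1% of the other rows at 5 CPM or more. In 58 members each KO library lay above each WT library, against 31.5% of the other rows. Without KO Jurkat 4 h replicate 2 these counts were 103 members against 71% of the other rows, and 68 members against 41.5%. The rule used these libraries, so nothing is drawn from these counts. Among the members were Bmf, at 9.85, 7.96 and 9.31 CPM in WT and 13.4, 13 and 14 CPM in KO libraries, and Arrb1, with the values given above.

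At OVA 4 h, summed lists of several other cell types did not overlap between the genotypes. They were those for basophils or mast cells, stroma or endothelium, plasmacytoid cells, neutrophils, B cells, the T lineage and type 2 conventional dendritic cells. The housekeeping list did not overlap either (17878 to 18183 CPM in WT, 17059 to 17280 CPM in KO libraries), so such separation is not particular to a cell type. The monocyte or macrophage list above and the list for type 1 conventional dendritic cells did overlap. The 12 genes of basophils or mast cells summed to 155 to 167 CPM in WT and 210 to 212 CPM in KO libraries of OVA 4 h, with Mcpt4 and Tpsab1 at 0 in untreated libraries and 2 of the 12 at 5 CPM or more. The 18 genes of stroma or endothelium summed to 1017 to 1271 CPM in WT and 1463 to 1595 CPM in KO libraries, with 11 at 5 CPM or more. The 25 plasmacytoid genes, 24 of them in the table and 22 at 5 CPM or more, summed to 5293 to 5386 CPM in WT and 4581 to 4763 CPM in KO libraries. None of the basophil or mast cell, stroma or endothelium and plasmacytoid genes is a member. The part of any of these lists in the genotype differences of the members was not tested.

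What the members share beyond the rule was looked for in their gene models (GENCODE vM21, on GRCm38), where 105 of 111 were matched and 103 are coding. The median 3′ untranslated region was 1112 bases, against 927 bases over all genes tested. The pentamer ATTTA, the core of elements that shorten the life of a transcript, stood there at a median of 0.964 per kb, against 1.26 per kb over all genes tested and 1.34 per kb over the other rows at 5 CPM or more. A longer AU-rich nonamer was found in 4 of 101 members with such a region (3.96%), against 7.09% of all genes. The median coding length was 1227 bases against 1389 bases, and the median number of exons was 7 against 9. The median GC content of the transcript was 53.3% against 50.7%. None of these differences was tested, and the members' ranges overlap those of all genes for each.

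Neighbouring members were few. Within 200 kb of each other lay Dpep3 and Dpep2, Cd209a and Cd209c, Tet1 and Dna2, Pianp and Lpar5, Nat8l and Mxd4, A430078G23Rik and Arhgef18 (2.7 kb apart, on the same strand), and the Rtl8 copies. The use of strand in counting is not given in the sources used here, so reads that run from A430078G23Rik into Arhgef18, or the reverse, cannot be told apart. The 10 members of chromosome 15 were the most on any chromosome, which carries 405 of the 10080 rows at 5 CPM or more.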

How the data were processed

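FLT3L-grown mouse dendritic cells gave RNA for TruSeq v2 libraries, per the labels' protocols. The authors deposited 1 table of read counts per gene with mm10 intervals, per the file headers. STAR 2.5, Subread featureCounts 1.5.0-p1 and DESeq2 are named in the submitters' processing notes; for annotation, strand, multi-mapping and human reads, the settings were not given in the sources used here.

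Members were found on CPM from column totals. Tests used edgeR 4.0.16 (R 4.3.3): TMM factors, filterByExpr (14808 genes, 99.99% of counts), 1 mean per group over 30 libraries, and the quasi-likelihood F test, two-sided, with Benjamini-Hochberg FDR under 0.05. The SE was taken as the size of the log2 fold change over the root of F. Simulated 1.5-fold changes in Jurkat 30 min against OVA 30 min of WT cells were recovered in 100% of cases (11 false calls among 14519 genes). The simulation gave every gene the same spread and changed only genes at 5 CPM or more. It checks that the fit runs as meant and does not measure the power for smaller changes or for genes with a wider spread. Contrasts of untreated and Jurkat 4 h libraries, which chose the members, are described without calls. Alternatives were DESeq2 1.42.0, other scaling, filters, fitted groups, a replicate block and leaving out each library. The members and lists were chosen with earlier results of these data known. Genes named are Hepacam2, the 5 deepest and 5 most counted members, 3 on each side of the limit, 3 per direction and contrast by p, and members with textbook roles. Promoters came from RefSeq. No 2 replicates agreed within sampling noise (chi-square per degree of freedom 2.28 to 134).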

Additional observations from a re-analysis of the deposited data

How the results depend on the processing

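No member's call reversed under any alternative run. With 1 library left out, 304 recomputed calls of single members missed the threshold and 1220 kept it. The other settings each lost 1 to 16 calls. The number of members was 64 with a limit of 12.5% left in place of 16.7% and 67 with CPM on TMM-scaled libraries, all of them among the 111. It was 163 with a limit of 20%, 119 with a minimum of 3 CPM, 99 with 10 CPM and 110 to 114 without each library. Leaving out each library in turn gave 20 to 28 members for Jurkat 30 min against OVA 30 min in WT (31 with all, 20 without WT Jurkat 30 min replicate 1) and 10 to 18 in KO cells (17 with all, 11 without KO OVA 30 min replicate 1 or 2 or KO Jurkat 30 min replicate 1, 10 without KO Jurkat 30 min replicate 2). For OVA 4 h against OVA 30 min it gave 72 to 83 in WT (84 with all) and 22 to 31 in KO cells (35 with all, 22 without KO OVA 4 h replicate 3). For KO against WT it gave 9 to 19 at OVA 30 min (23 with all, 15 without WT OVA 30 min replicate 1, 9 without KO OVA 30 min replicate 2), 9 to 15 at Jurkat 30 min (15 with all, 9 without WT replicate 2 or KO replicate 3) and 37 to 46 at OVA 4 h (49 with all). The added interaction called 4 members by DESeq2 and 0 to 2 without each library. The cause of these changes was not tested, except that fewer libraries entered. With the replicate number as a block the counts were 31, 24, 85, 37, 22, 17 and 48 in the order of the 7 contrasts above, and 0 for both interactions. Replicate numbers are shared by the groups, and the correlations between deviations of same-numbered libraries were mixed. Between genotypes they ran from -0.235 to -0.153 at OVA 4 h and from -0.0384 to 0.290 at Jurkat 30 min. In WT cells they ran from -0.000902 to 0.433 for Jurkat 30 min against OVA 30 min. For OVA 4 h against OVA 30 min in WT cells they ran from -0.195 to 0.308. No contrast had all 3 correlations over 0.1, and the main tests did not pair libraries by number. The smallest member count was 14 reads, so depth limits the precision of the lowest member levels. The 3 libraries per group limit the calls that rest on small differences.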
